A study of Mus musculus with 22 samples.

Results

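Oct4 and Nanog responses were set against each other in whole mouse embryos at embryonic day 7.5 (E7.5), the stage of gastrulation. All libraries of that stage were taken, 11 of the 22 in the series, and the quantity followed is the difference between the responses, (Oct4 induced minus Oct4 control) minus (Nanog induced minus Nanog control), on the log2 scale. All embryos were on the C57BL/6 background. Those of the Oct4 line carried ROSA26tg/+ and Oct4tg/+, and those of the Nanog line ROSA26tg/+ and Nanogtg/+. In both lines the mothers of induced embryos (dox+) were injected with doxycycline into the peritoneum at E4.5 and drank it with their water until E7.5, and the controls (dox-) carried the same alleles without the drug. There were 3 control and 3 induced libraries of the Oct4 line, and 2 control and 3 induced libraries of the Nanog line. Each library was made from total RNA of a pool of 8 to 12 whole embryos, so the spread between replicates is that between pools, and the p-values measure that spread. A group given the drug but carrying no transgene is not among the 4, so an effect of doxycycline itself cannot be told apart from either response. The lines share no control pool.

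Oct4, encoded by Pou5f1, and Nanog are transcription factors that hold early embryonic cells in a pluripotent state. Both are normally switched off as the epiblast passes through the primitive streak and forms mesoderm, definitive endoderm and neural plate, while Nodal, Wnt and FGF ligands pattern the streak and the Hox genes are activated in sequence along their clusters. In cultured pluripotent cells the factors share many binding sites, and loss of Oct4 and loss of Nanog have different outcomes in the early embryo.

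The libraries differed in more than their groups. Totals ran from 24.9 to 42.3 M counts in the Oct4 line and from 6.59 to 26.0 M in the Nanog line, with 18276 to 21262 genes detected. Gene models shorter than 80 nucleotides summed to 29.0 to 52.0 CPM (counts relative to the library's total, here without TMM scaling) in the 6 Oct4 pools and to 31.4 and 36.7 CPM in the Nanog controls, but to 0.575 to 1.08 CPM in the 3 Nanog induced pools. The CPM of genes and lists carry TMM scaling. Mitochondrially encoded genes took 3.30% and 3.63% of the counts in Nanog controls, 5.27% to 8.26% in Nanog induced pools and 3.81% to 5.51% in the Oct4 pools. The first principal component, with 34.2% of the variance, set the Nanog induced pools apart from the other 8. The part of these library properties in any difference between the lines was not tested. In whole-embryo RNA, fewer cells of a type and less RNA per cell cannot be told apart.

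The induced genes were read first. Pou5f1 (ENSMUSG00000024406, chr 17, 35642982 to 35647721, NCBIM37) stood at 240, 209 and 210 CPM in the Oct4 controls and at 599, 626 and 490 CPM in the Oct4 induced pools. In the Nanog line it stood at 234 and 212 CPM in controls and at 450, 535 and 580 CPM in induced pools. The control and induced pools did not overlap in either line, and the induced pools of both lines did. Pou5f1 rose by a log2 fold change of 1.38 ± 0.12 (SE) in the Oct4 line (adjusted p = 2.32e-05) and of 1.23 ± 0.14 in the Nanog line (adjusted p = 0.000171), and the difference between these responses was 0.15, with a 95% interval from -0.22 to 0.52 (adjusted p = 0.856). Reads of a transgene and of the endogenous gene are counted together. By the genotypes given, the Nanog line carried no Oct4 transgene, so for Pou5f1 this applies to the Oct4 line.

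Nanog (ENSMUSG00000012396, chr 6, 122657507 to 122664651) stood at 20.3, 18.1 and 17.3 CPM in Oct4 controls and at 33.6, 26.9 and 25 CPM in Oct4 induced pools, against 21.8 and 16.4 CPM in Nanog controls and 102, 54.0 and 116 CPM in Nanog induced pools. The Nanog induced pools were above all other pools. Nanog rose in the Nanog line (2.25 ± 0.32, adjusted p = 0.00228), a call lost when each response was fitted on its own groups (adjusted p = 0.0752). Its Oct4 response was 0.62 ± 0.25 (adjusted p = 0.248). The difference was -1.63 (95% interval -2.51 to -0.74) and did not pass over all genes (adjusted p = 0.203).

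Across the 16680 genes tested, edgeR called 922 in the Oct4 response (5.53%; 350 or 2.1% higher, 572 or 3.43% lower) and 1605 in the Nanog response (9.62%; 676 or 4.05% higher, 929 or 5.57% lower). Called in both, in the same direction, were 549 genes (3.29% of those tested), 181 higher (1.09%) and 368 lower (2.21%). These make up 59.5% of the genes called for Oct4 and 34.2% of those called for Nanog. Of the genes called for Oct4, 879 (95.3%) had the same sign in the Nanog response, and of those called for Nanog 1423 (88.7%) had the same sign in the Oct4 response. Over all genes tested the share was 65.5%. The log2 fold changes correlated across all tested genes with Pearson's r = 0.28 and Spearman's rho = 0.393, a description over genes, which are not independent replicates. Over the 1975 genes called in either response r was 0.598 and rho 0.748. Leaving out either of the 2 Nanog control pools lowered the shared count to 283 (without control 2) or 271 (without control 3), and leaving out Oct4 control 3 lowered it to 320. The Nanog count alone was 552 and 531 without Nanog control 2 and 3, and the Oct4 count was 587 and 453 without Oct4 control 1 and 3 and 614 without Oct4 induced 3.

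The difference between the responses was called for 34 genes (0.204%), 23 (0.138%) with a higher value in the Oct4 response and 11 (0.0659%) with a lower one. At an unadjusted p under 0.05 there were 1696 genes (10.2%). The count depended on the libraries and the tool. It was 19 and 16 without Nanog control 2 and 3, 102 without Nanog induced 1, 19 without Oct4 control 1 or 3 and 20 without Oct4 induced 3. Of the 34 calls, 10 held in each of the 11 fits that left out 1 library. These were 2 protein-coding genes, 5 pseudogenes, 2 mitochondrial tRNAs and 1 processed transcript. DESeq2 called 244 genes, limma-voom 19, and limma-voom with sample weights 266, and DESeq2 and the weighted fit had 147 genes in common, 32 of them among the 34. By the calls of edgeR, 3 genes moved in opposite directions, 1 gene called in both in the same direction also differed in size, 4 were called for Oct4 alone (Dlx3, Pecam1, and Dll4 and Gm6451, which the naming rule does not cover) and 26 for Nanog alone. Another 366 genes called for Oct4 and 1027 called for Nanog were not called in the other line and showed no called difference. Whether they respond to 1 factor alone is not settled by these libraries. The plot of the Nanog response against the Oct4 response shows these classes.

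**Figure D1:**
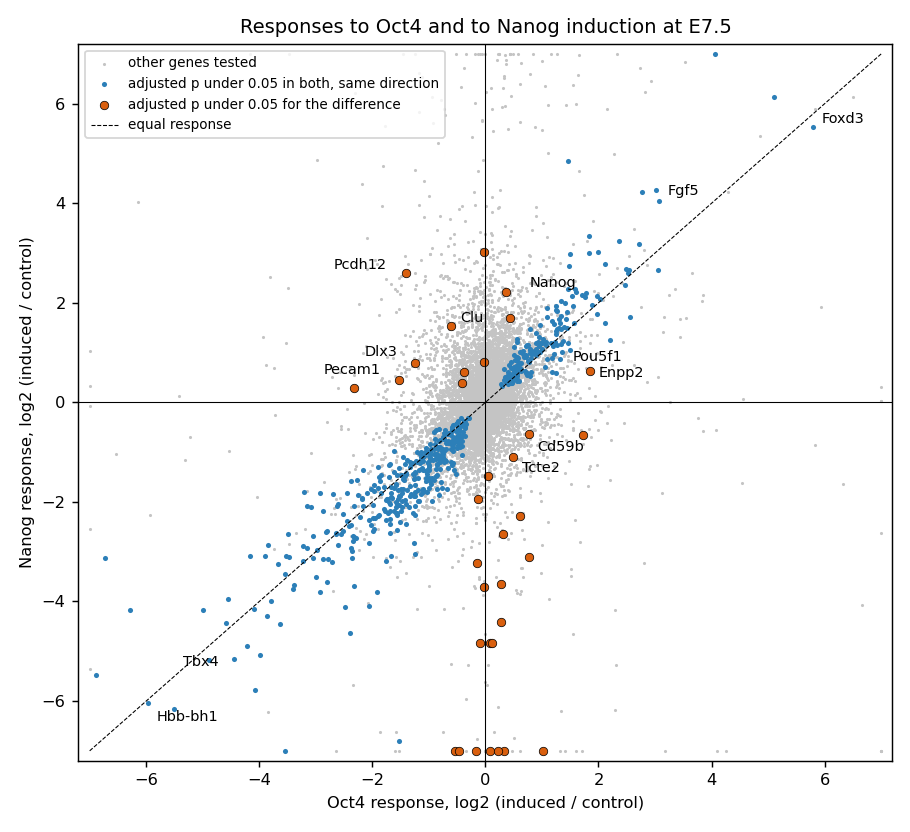
Log2 fold change, induced over control, for each of the 16680 genes tested: Oct4 response on the x axis and Nanog response on the y axis. Blue points (549 genes less the 1 drawn in orange) were called in both responses in the same direction and lie near the dashed line of equal response; the 34 orange points were called for the difference. The 62 genes beyond 7 in either direction are drawn at the edge.

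For the 549 shared genes the median log2 fold change was 0.86 (Oct4) and 1.02 (Nanog) among those that rose, and -1.25 (Oct4) and -1.52 (Nanog) among those that fell. The Nanog response was the larger for 401 of the 549, and the same share over all genes was not counted. The 549 were chosen by a call in both responses, and the Nanog line has 2 control pools against 3. The part of that choice in the larger Nanog values was not tested. The 95% interval of the difference lay within 1 log2 unit of 0 for 287 of the 549 genes (52.3%), against 60.4% of all genes tested. For the other 262 a difference of 2-fold or more is not excluded by the interval. Of the 549 calls, 182 held in each of the 11 fits that left out 1 library.

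Fgf5 and Foxd3 rose in both lines. Fgf5, an FGF ligand that marks the primed epiblast (chr 5, 98683203 to 98706049), stood at 3.07, 5.22 and 2.28 CPM in Oct4 controls and 37.5, 32.0 and 18.7 CPM in Oct4 induced pools, and at 4.06 and 3.90 CPM in Nanog controls and 60.0, 61.8 and 76.8 CPM in Nanog induced pools. No induced pool of either line reached down to a control. It rose by 3.06 ± 0.33 in the Oct4 line (adjusted p = 0.000621) and by 4.05 ± 0.45 in the Nanog line (adjusted p = 0.0008), with a difference of -0.99 (95% interval -2.23 to 0.26). Foxd3, a forkhead factor of the epiblast, stood at 0.135, 0.311 and 0.0713 CPM in Oct4 controls and 12.6, 10.9 and 5.98 CPM in Oct4 induced pools. In the Nanog line its values were 0.290 and 0.334 CPM, then 7.26, 18.1 and 19.2 CPM. This is a rise from nearly nothing in both lines, of 5.80 ± 0.55 and 5.54 ± 0.77 (adjusted p = 0.000177 and 0.00176). The Nanog call for Foxd3 was lost with limma-voom (adjusted p = 0.079).

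Of the 12 tested members of the primed epiblast list, 7 were called higher in both lines (1.09% of all genes tested were), with medians of 0.89 (Oct4) and 1.11 (Nanog) against medians of 0.01 and 0.01 over all genes tested. Beside Fgf5 and Foxd3 these included Otx2, a homeobox factor of the epiblast and anterior embryo (0.78 and 1.08), the kinase gene Pim2 (1.45 and 1.82) and Dnmt3b, a de novo DNA methyltransferase (1.0 and 1.2). The Otx2 calls were lost without Oct4 control 2 or 3 (Oct4, adjusted p up to 0.0792) and without Nanog control 3 (Nanog, 0.0627). Dnmt3b stood at 612 to 728 CPM in the 5 control pools of both lines and at 1162 to 1687 CPM in the 6 induced pools. In the core and naive pluripotency list, 4 of 21 tested members were called higher in both: Tdgf1, Dppa5a, Utf1 (1.41 and 2.0) and Esrrb (1.25 and 1.43). The list did not move as a block. Sox2 stood at 30 to 50.9 CPM in Oct4 controls, 28 to 32.6 in Oct4 induced pools, 38.9 and 45.1 in Nanog controls and 40.7 to 50.7 in Nanog induced pools and was called in neither line. Klf4 rose in the Nanog response (0.70, adjusted p = 0.0433) and Tcfcp2l1, a factor of naive cells, fell in it (-0.73, adjusted p = 0.00805), with Oct4 responses of -0.14 and -0.32 that were not called. The Klf4 call held in 8 of 23 alternatives, and that of Tcfcp2l1 was lost without Nanog control 3 (adjusted p = 0.0921).

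Nodal, the ligand that maintains the epiblast and induces the streak, stood at 1.82, 2.08 and 1.69 CPM in Oct4 controls and 13.9, 13.6 and 9.24 CPM in Oct4 induced pools, and at 2.03 and 1.23 CPM in Nanog controls and 12.5, 12.3 and 19.2 CPM in Nanog induced pools. The groups did not overlap within either line, and the induced groups overlapped each other. Nodal rose by 2.72 ± 0.23 and 3.18 ± 0.33 (adjusted p = 2.32e-05 and 0.00012). Its co-receptor gene Tdgf1 rose by 5.10 ± 0.64 and 6.14 ± 0.91, and its target Eomes, a T-box factor of the streak, by 2.36 ± 0.19 and 3.23 ± 0.24. Cer1, a secreted Nodal inhibitor, rose by 1.16 and 1.2. The Nanog call for Tdgf1 was lost without Nanog control 2 or 3 (adjusted p up to 0.0794). In all, 6 of 22 members of the Nodal pathway list were called higher in both lines, against 1.09% of all genes tested. With Oct4 9 were called higher and 0 lower (2.1% and 3.43% of all genes). With Nanog 6 were called higher and 3 lower (4.05% and 5.57%). No member was called for the difference by edgeR.

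In the streak and nascent mesoderm list, 8 of 22 members were called higher in both lines and 5 lower in both (1.09% and 2.21% of all genes tested). The ligand gene Wnt3, which is needed to form the streak, rose by 2.54 ± 0.19 and 2.66 ± 0.26, the LIM homeobox gene Lhx1 by 2.51 and 2.60, and Mesp1, a factor of the first mesoderm, by 2.47 ± 0.18 and 2.37 ± 0.24. Mesp1 values were 11.1, 10.5 and 7.63 CPM against 57.5, 65.1 and 38.5 CPM in the Oct4 line, and 8.12 and 7.57 CPM against 39.2, 39.3 and 43.1 CPM in the Nanog line. Gsc, the organizer homeobox gene, was also called in both (3.02 and 4.27), but its Oct4 call was lost without each of 5 Oct4 pools (adjusted p up to 0.129) and its Nanog call without each of 6 libraries (up to 0.212). The 5 that fell were genes of the later, posterior streak and its mesoderm: Cdx1, Cdx2, Cdx4, Wnt3a and Msgn1. Cdx1 fell by 3.63 and 4.46, and Wnt3a fell by 1.08 and 1.77. The Nanog calls for Lhx1 and Msgn1 were lost without Nanog control 2 or 3 (adjusted p up to 0.0736 and 0.0594). Slc7a3, an amino acid transporter gene, rose from 19.8 to 24.7 CPM in Oct4 controls to 70.9 to 111 CPM, and from 23.2 and 23.4 CPM to 89.1 to 108 CPM in the Nanog line, with a difference of -0.05 (95% interval -0.56 to 0.46).

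**Figure D2:**
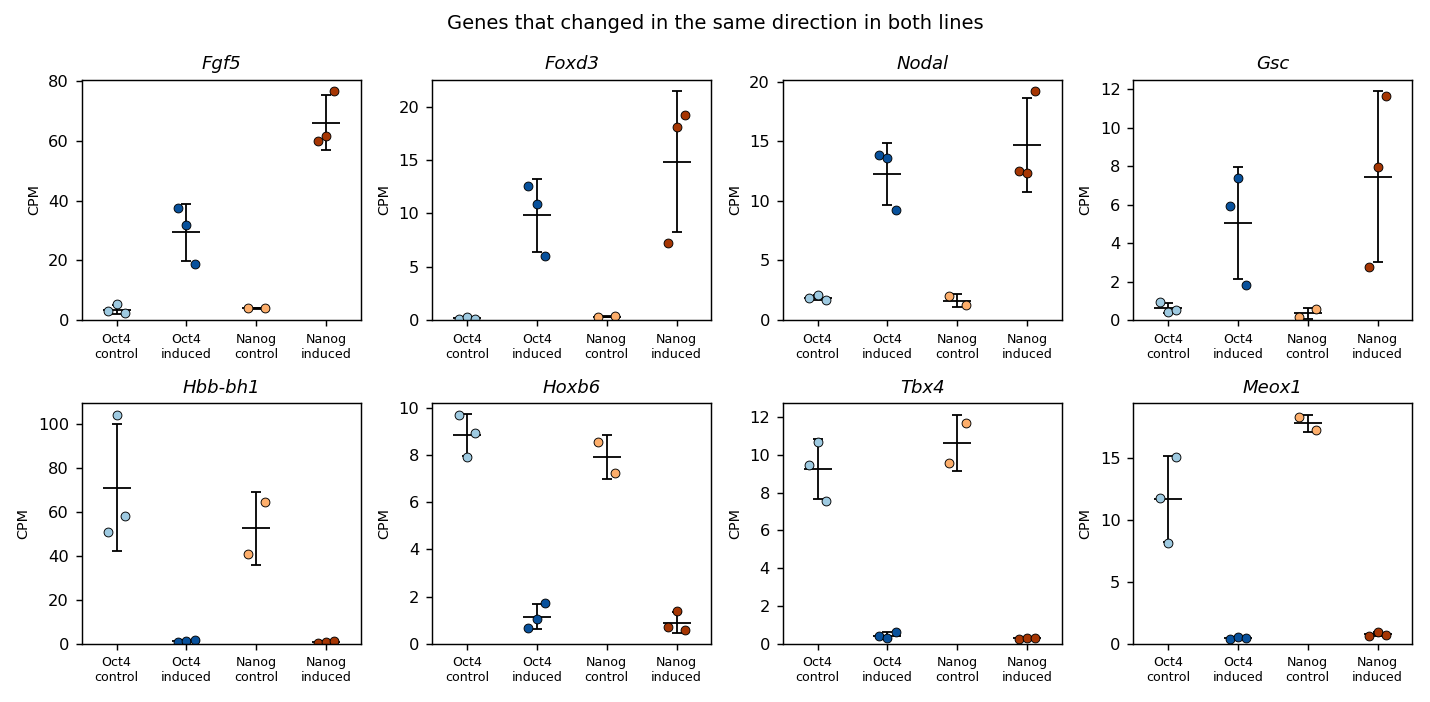
Level in CPM (y axis) of 8 genes called in the same direction in both lines, in each pool (points), with the mean (bar) and SD (whiskers) of the 3 Oct4 control, 3 Oct4 induced, 2 Nanog control and 3 Nanog induced pools. In the upper row all induced pools of a line lie above its controls and in the lower row all lie below.

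Of the lists for tissues that arise after the streak, those of primitive haematopoiesis, heart, allantois and lateral mesoderm, and anterior neural plate had 11 of 22, 9 of 22, 8 of 20 and 4 of 15 tested members called lower in both lines, and that of the endothelium 2 of 18, against 2.21% of all genes tested. Hbb-bh1, the embryonic beta globin of primitive erythrocytes (chr 7, 110990150 to 110991678), stood at 51.0, 104 and 58.1 CPM in Oct4 controls and 0.765, 1.14 and 1.61 CPM in Oct4 induced pools, and at 40.6 and 64.2 CPM in Nanog controls and 0.359, 0.848 and 1.29 CPM in Nanog induced pools. Induced pools of both lines were far below all controls and overlapped each other. The log2 fold changes were -5.97 ± 0.42 (adjusted p = 8.59e-05) and -6.04 ± 0.51 (adjusted p = 0.000243), and the difference was 0.07 (95% interval -1.53 to 1.67). Another of the 11 haematopoiesis members is Lmo2, a partner protein of the blood transcription factors, at 24.2 to 35.2 CPM in the 5 controls, 14.1 to 17.4 CPM in Oct4 induced pools and 7.44 to 7.98 CPM in Nanog induced pools (-1.10 ± 0.12 and -1.79 ± 0.14). RSEM divides reads among the beta globin copies, so the value of each globin is uncertain.

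The Hox list, which marks the anteroposterior axis, had the lowest medians of the 28 lists, -2.36 for Oct4 and -2.61 for Nanog, and 18 of 31 tested members were called lower in both lines (2.21% of all genes tested were). Hoxc5 was at 0 in the Oct4 induced pools, and its bound left the Oct4 median at -2.36. Hoxb6 stood at 9.68, 7.92 and 8.91 CPM in Oct4 controls against 0.666, 1.05 and 1.73 CPM, and at 8.55 and 7.24 CPM in Nanog controls against 0.717, 1.39 and 0.574 CPM. No induced pool reached a control of either line. Hoxb6 fell by 2.98 ± 0.31 and 2.96 ± 0.38, with a difference of -0.02 (95% interval -1.09 to 1.05). The one Hox gene called higher was Hoxd11, in the Nanog response (2.65, adjusted p = 0.0304). That call was lost without Nanog control 3 or Nanog induced 4 (adjusted p up to 0.252). Other posterior Hox genes, Hoxa10 and Hoxa11, stood at 12.4 to 38.3 CPM and 7.89 to 29.6 CPM in Nanog induced pools, against 7.25 and 7.68 CPM and 3.34 and 6.52 CPM in Nanog controls. Neither was called (adjusted p = 0.0872 and 0.131). The edgeR fit called no Hox gene for the difference between the lines. DESeq2 and a fit with a replicate block called Hoxa10, lower with Oct4, among 244 and 89 genes called over all genes.

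Tbx4, a T-box factor of the allantois, stood at 9.47, 10.7 and 7.56 CPM in Oct4 controls against 0.395, 0.277 and 0.619 CPM, and at 9.57 and 11.7 CPM in Nanog controls against 0.269, 0.308 and 0.287 CPM. It fell by 4.45 ± 0.26 (adjusted p = 1.55e-06) and 5.16 ± 0.33 (adjusted p = 2.72e-06). Meox1, a homeobox factor of the somites, fell by 4.60 ± 0.26 and 4.44 ± 0.29, with a difference of -0.16 (95% interval -1.01 to 0.69). Shh, the notochord and node ligand gene, fell by 3.79 and 3.98, and Arg1, which encodes arginase, fell by 4.21 and 4.89. The node and definitive endoderm list, which holds Shh, did not fall as a block. Of its 19 tested members 4 were called higher and 1 lower in both lines (1.09% and 2.21% of all genes tested). Its median responses were 0.07 (Oct4) and 0.12 (Nanog). The 9 heart genes called lower in both lines (2.21% of all genes tested were) included Nkx2-5, a cardiac homeobox factor (-2.48 and -4.11), Gata5 (-2.71 and -3.20), Mef2c (-1.47 and -2.10) and Smarcd3, a chromatin remodelling subunit of the heart (-1.5 and -1.89). The Oct4 call for Gata5 was lost without Oct4 induced 1 (adjusted p = 0.051).

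Aldh1a2 makes retinoic acid in the mesoderm (chr 9, 71063596 to 71144050). It stood at 137, 79.4 and 139 CPM in Oct4 controls and at 6.91, 5.82 and 7.10 CPM in Oct4 induced pools, and at 141 and 124 CPM in Nanog controls and 8.07, 16.5 and 23.0 CPM in Nanog induced pools. The Nanog induced pools lay above the Oct4 induced pools. Aldh1a2 fell by 4.16 ± 0.36 (adjusted p = 0.000305) and 3.09 ± 0.37 (adjusted p = 0.00159). The difference of -1.07 was not called (95% interval -2.21 to 0.07). Rarb and Crabp2, a receptor and a binding protein of retinoic acid, fell too, by 2.33 and 2.70 and by 2.32 and 2.08.

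The octamer ATTTGCAT is the sequence that Oct factors bind, and it was looked for on both strands of the 250 bases before each start site in RefSeq (GRCm38.p6), where 131 of the 181 shared genes that rose, 244 of the 368 that fell and 10933 of all tested symbols had an entry. It was in 4 of the 131 (3.05%), 5 of the 244 (2.05%) and 187 of all 10933 (1.71%). Among the 24 shared genes named by size it was found before Aldh1a2, but promoters of 1 chromosome were left out of this step. The 250 bases before Aldh1a2 (chr9:71215539-71215788, plus strand) are shown for that reason. The match, which reads as the octamer on the other strand, is in capitals.
Aldh1a2: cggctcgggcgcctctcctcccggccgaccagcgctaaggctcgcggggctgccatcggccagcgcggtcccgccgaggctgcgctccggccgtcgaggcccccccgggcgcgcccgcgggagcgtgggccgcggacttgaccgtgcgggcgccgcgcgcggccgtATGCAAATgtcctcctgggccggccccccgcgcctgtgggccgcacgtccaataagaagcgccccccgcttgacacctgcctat
The match starts 84 bases before the annotated start. Another 4 motifs, none of which contains another, were searched in the same way. CCATTA, a homeobox core, was before 8.40% of the shared genes that rose, 4.92% of those that fell and 5.15% of all. The shares were 2.29%, 0.410% and 0.979% for the T-box motif AGGTGTGA, 7.63%, 5.74% and 6.20% for the Otx motif TAATCC and 0.763%, 0.410% and 0.338% for the Sox motif ATTGTTAT. A match is a description of the letters and not a binding site.

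In a small set of genes the responses of the lines were called different. Cd59b, which encodes an inhibitor of complement anchored to the membrane (ENSMUSG00000068686, chr 2, 103910006 to 103931344), stood at 70.2, 68.2 and 70.5 CPM in Oct4 controls and at 113, 125 and 116 CPM in Oct4 induced pools. In the Nanog line it stood at 74.8 and 99.0 CPM in controls and at 46.4, 63.1 and 57.7 CPM in induced pools. It was higher in every induced pool of the Oct4 line and lower in every induced pool of the Nanog line. Cd59b rose by 0.76 ± 0.12 with Oct4 (adjusted p = 0.00123) and fell by 0.64 ± 0.13 with Nanog (adjusted p = 0.00868), and the difference of 1.40 ± 0.18 was called (95% interval 1.03 to 1.78, adjusted p = 0.00396). It was called in all 22 alternative fits (adjusted p at most 0.0328). The fall in the Nanog line taken alone was lost without Nanog control 3 (adjusted p = 0.170). RSEM shares reads between Cd59b and its close copy Cd59a.

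Tcte2, a gene of the t-complex region (ENSMUSG00000038347, chr 17, 13675419 to 13898832), stood at 27.0, 32.1 and 29.4 CPM in Oct4 controls and 36.0, 43.7 and 44.7 CPM in Oct4 induced pools, against 29.6 and 27.7 CPM in Nanog controls and 13.0, 12.8 and 14.4 CPM in Nanog induced pools. The controls of the lines overlapped and the induced pools parted in opposite directions. Tcte2 rose by 0.49 ± 0.11 with Oct4 (adjusted p = 0.0137) and fell by 1.10 ± 0.13 with Nanog (adjusted p = 0.000252), a difference of 1.59 ± 0.17 (95% interval 1.23 to 1.95, adjusted p = 0.00108) that was called in all 22 alternatives (adjusted p at most 0.0098). The Oct4 call was lost without Oct4 control 1, Oct4 control 3 or Oct4 induced 3 (adjusted p up to 0.0708). The third gene called in opposite directions, Slc39a6, which encodes a zinc transporter, stood at 26.4, 27.2 and 27.3 CPM against 20.1, 20 and 20.5 CPM in the Oct4 line and at 26.4 and 30 CPM against 35.5, 40.4 and 34.9 CPM in the Nanog line. The difference was -0.81 ± 0.14 (adjusted p = 0.0393) and was called in 11 of 22 alternatives and in 2 of the 11 that left out 1 library (adjusted p up to 0.235).

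Enpp2 encodes autotaxin, the secreted enzyme that makes lysophosphatidic acid (ENSMUSG00000022425, chr 15, 54670453 to 54751701), and is the shared gene whose sizes of response differed. Its values were 17.3, 20 and 16.2 CPM in Oct4 controls and 58.6, 75.1 and 58.9 CPM in Oct4 induced pools, against 14.1 and 13.0 CPM in Nanog controls and 23.5, 19.5 and 19.5 CPM in Nanog induced pools. All induced pools were above the controls of their own line, and the Nanog induced pools overlapped the Oct4 controls. Enpp2 rose by 1.85 ± 0.12 with Oct4 (adjusted p = 4.5e-06) and by 0.62 ± 0.16 with Nanog (adjusted p = 0.0269), a difference of 1.22 ± 0.20 (95% interval 0.79 to 1.66, adjusted p = 0.0301). The difference was lost without either Nanog control, Nanog induced 3, Oct4 control 1 or Oct4 control 3 (adjusted p up to 0.178), and the Nanog response itself without either Nanog control or Nanog induced 1 (up to 0.198).

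**Figure D3:**
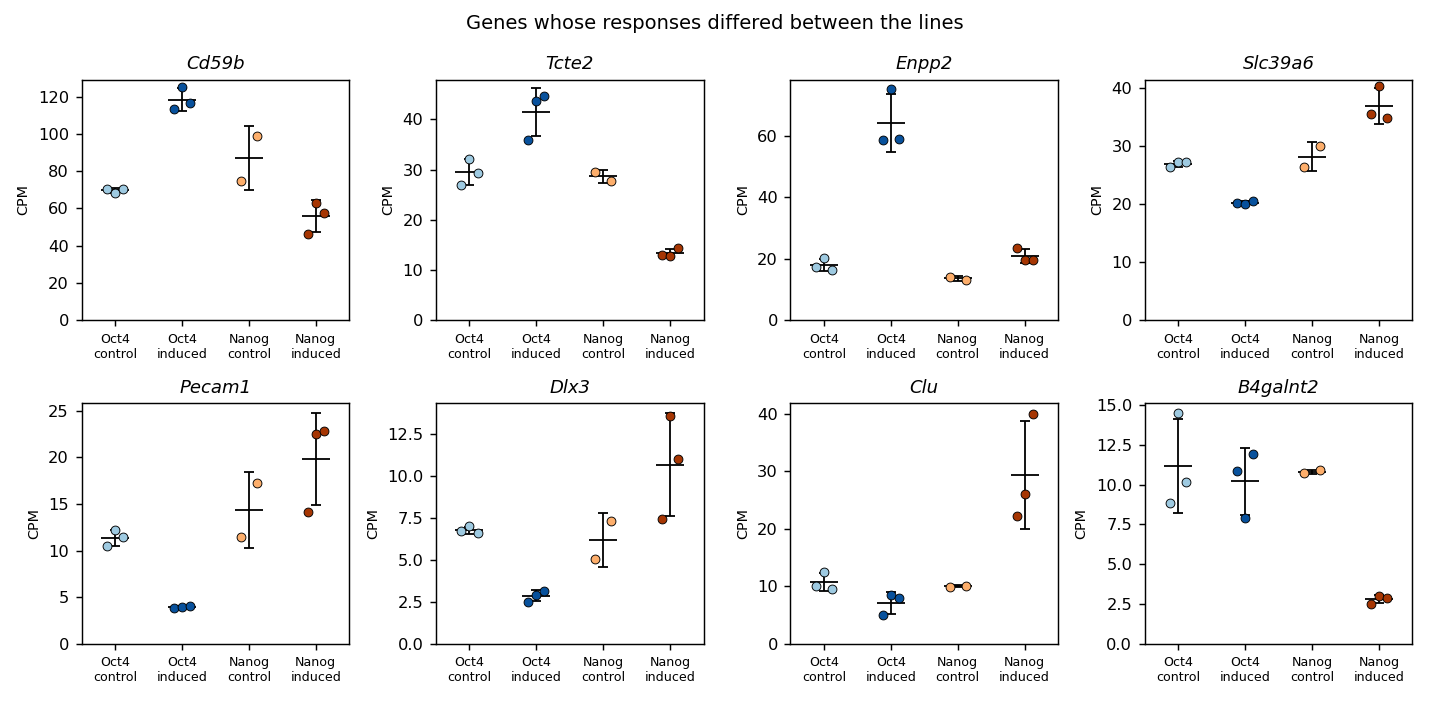
Level in CPM (y axis) of 8 genes with a called difference between the responses, in each pool (points), with mean (bar) and SD (whiskers) of the 4 groups. Cd59b and Tcte2 go up in the 3 Oct4 induced pools and down in the 3 Nanog induced pools, Slc39a6 does the reverse, and Pecam1 and Dlx3 fall in the Oct4 line while the Nanog induced pools stand at or above the Nanog controls in mean.

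Of the endothelium list, 1 member was called for the difference. Pecam1, an adhesion protein of endothelial cells (ENSMUSG00000020717, chr 11, 106515531 to 106611942), stood at 10.5, 12.2 and 11.5 CPM in Oct4 controls and 3.83, 3.97 and 4.08 CPM in Oct4 induced pools, against 11.4 and 17.3 CPM in Nanog controls and 14.2, 22.5 and 22.8 CPM in Nanog induced pools. The Oct4 induced pools were the lowest of the 11, and the Nanog groups overlapped. Pecam1 fell by 1.52 ± 0.19 with Oct4 (adjusted p = 0.000349), its Nanog response was 0.46 ± 0.22 (adjusted p = 0.217), and the difference was -1.98 ± 0.29 (95% interval -2.61 to -1.35, adjusted p = 0.014). That call was lost without Nanog control 2 (adjusted p = 0.0966) and held in the other 21 alternatives.

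Over the 18 members of the endothelium list the median response was -1.07 for Oct4 and -0.08 for Nanog, with a median difference of -0.76 against 0.00 over all genes. Called lower were 7 members for Oct4 and 2 for Nanog, where 3.43% and 5.57% of all genes were, and 14 of the 18 differences were below 0, as were 8278 of the 16680 over all genes. Pecam1 was the one member called for the difference by edgeR, and DESeq2 also called Cdh5 and Esam. Cdh5, which encodes VE-cadherin, stood at 12.5, 18.0 and 9.65 CPM against 4.07, 4.5 and 4.87 CPM in the Oct4 line, and at 11.6 and 35.6 CPM against 55.7, 126 and 68.3 CPM in the Nanog line. Its difference of -3.39 had an adjusted p of 0.178 by edgeR. The list did not divide as a whole, since Tek, an angiopoietin receptor, and Fli1, an ETS factor of blood and endothelium, fell in both lines, by 1.79 and 2.14 and by 1.10 and 1.73. Pcdh12, a cadherin of endothelium and of glycogen-rich trophoblast, read 0.689 to 1.25 CPM in Oct4 controls, 0.248 to 0.395 CPM in Oct4 induced pools, 1.30 and 1.78 CPM in Nanog controls and 4.12, 13.6 and 10.6 CPM in Nanog induced pools. It rose with Nanog (2.61 ± 0.49, adjusted p = 0.00562, up to 0.0804 without Nanog control 2 or 3), and the difference was -4.01 ± 0.67 (adjusted p = 0.0331), called in 10 of 22 alternatives and in 2 of the 11 that left out 1 library (adjusted p up to 0.189).

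Of the 20 tested trophoblast markers 1 was called for the difference, lower with Oct4 (0.0659% of all genes tested were). In the Oct4 response 3 were called lower (3.43% of all genes), and in the Nanog response 1 higher and 2 lower (4.05% and 5.57%). The members had median responses of -0.21 (Oct4) and 0.50 (Nanog) and a median difference of -0.71, with 17 below 0 (8278 of the 16680 over all genes). Without Nanog induced 3 this median was -0.45, and with weighted limma-voom -0.47. Prl3d1, a hormone gene of trophoblast giant cells, stood at 6.78, 37.7 and 2.78 CPM in Oct4 controls, 5.16, 5.88 and 5.36 CPM in Oct4 induced pools, 3.91 and 36.6 CPM in Nanog controls and 72.3, 87.1 and 70.3 CPM in Nanog induced pools. Plac1 stood at 16.8 and 42.5 CPM in Nanog controls and at 92.9, 132 and 132 CPM in Nanog induced pools, against 9.75 to 34.3 CPM in the 6 Oct4 pools. Both genes were chosen after their values were seen. In both the Nanog induced pools were above all others, the spread within control groups was wide, and no response was called (adjusted p of the Nanog response 0.386 and 0.0929). The summed level of the list was 1798 to 2009 CPM in Oct4 controls, 1339 to 1676 in Oct4 induced pools, 1868 and 2063 in Nanog controls and 1757 to 2286 in Nanog induced pools, and Prl3b1 was below 0.1 CPM in all. The part of the trophoblast in the endothelial difference was not tested.

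Dlx3, a homeobox factor of the placenta (ENSMUSG00000001510, chr 11, 94981403 to 94986610), was the trophoblast member called for the difference. It stood at 6.71, 7.01 and 6.61 CPM in Oct4 controls and 2.52, 2.92 and 3.18 CPM in Oct4 induced pools, against 5.07 and 7.35 CPM in Nanog controls and 7.44, 13.6 and 11.1 CPM in Nanog induced pools. Groups did not overlap within either line. Dlx3 fell by 1.24 ± 0.21 with Oct4 (adjusted p = 0.00304) and its Nanog response was 0.78 ± 0.26 (adjusted p = 0.072), a difference of -2.03 ± 0.33 (95% interval -2.75 to -1.31, adjusted p = 0.0301). The call was lost in 8 of the 11 fits that left out 1 library, those without either Nanog control among them (adjusted p up to 0.185).

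**Figure D4:**
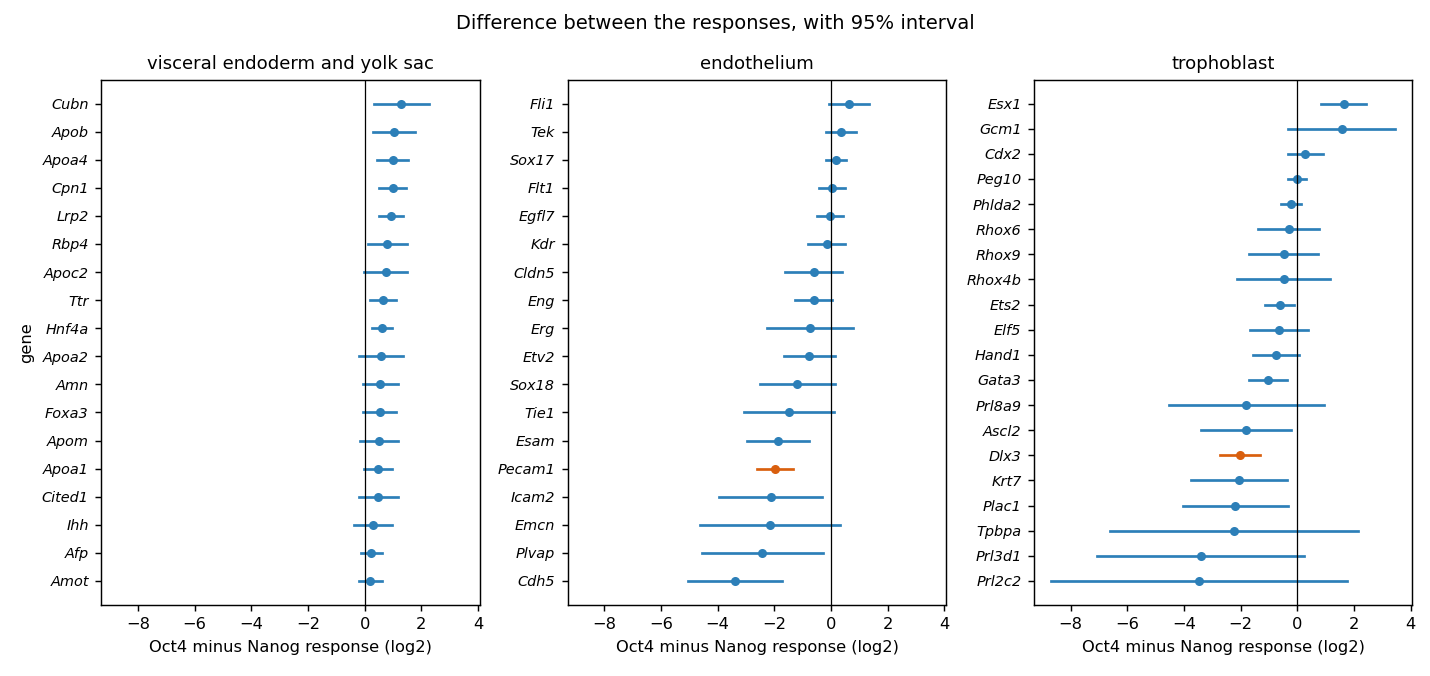
Oct4 response minus Nanog response (x axis, log2) with its 95% interval for tested genes of 3 lists (y axis). All visceral endoderm genes drawn, which leave out 1 of the 19 tested, lie above 0, while 14 of 18 endothelial and 17 of 20 trophoblast genes lie below; the genes called for the difference, Pecam1 and Dlx3, are orange.

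Of 19 tested genes of the visceral endoderm, the outer layer that feeds the early embryo, 11 were called lower in the Nanog response, where 5.57% of all genes were, and 1 in the Oct4 response, where 3.43% were. All 19 members had a higher Oct4 than Nanog response, by a median of 0.61 and by 0.19 to 1.29, as had 8402 of the 16680 over all genes. No member was called for the difference by edgeR. At an unadjusted p under 0.05 there were 9, all higher with Oct4, against 796 of the 16680 over all genes. DESeq2 called 6, against 244 in either direction over all genes. Lrp2, an endocytic receptor gene, stood at 215, 267 and 242 CPM in Oct4 controls and 165, 185 and 156 CPM in Oct4 induced pools, against 234 and 275 CPM in Nanog controls and 101, 106 and 73.4 CPM in Nanog induced pools. It fell in both lines, by 0.52 ± 0.13 and 1.44 ± 0.15, and the difference was 0.92 (95% interval 0.49 to 1.35, adjusted p = 0.116). The Oct4 call was lost in 6 of the fits that left out 1 library (adjusted p up to 0.134). Apoa4, an apolipoprotein gene, stood at 131, 165 and 145 CPM in Oct4 controls and 143, 206 and 143 CPM in Oct4 induced pools, against 108 and 111 CPM in Nanog controls and 63.9, 71.3 and 47.5 CPM in Nanog induced pools. It fell by 0.84 ± 0.19 with Nanog (adjusted p = 0.0174, up to 0.108 without Nanog control 2 or 3), and its Oct4 response was 0.16 ± 0.16.

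The Nanog controls of that list already stood lower. Its summed level was 5640 to 7107 CPM in Oct4 controls and 5361 to 6383 in Oct4 induced pools, against 4709 and 5087 CPM in Nanog controls and 2301 to 3293 CPM in Nanog induced pools, and the median over members of Nanog control minus Oct4 control was -0.43. Comparing induced pools directly, all 19 members were called higher with Oct4 than with Nanog, where 8.33% of all genes were called higher. The mitochondrial share was highest in 2 of the same Nanog induced pools, and its part was not tested.

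The paraxial mesoderm and somite list had 3 of 14 tested members called higher and 4 lower with Oct4 (2.1% and 3.43% of all genes), and 1 higher and 7 lower with Nanog (4.05% and 5.57%), and none was called for the difference. Its median responses were -0.45 and -1.37. Its median difference of 0.42 rested on single libraries, since it was 0.15 without Oct4 induced 1, 0.18 without Nanog induced 1, 0.28 without Oct4 control 2 and 0.82 without Nanog induced 3. It was 0.17 after thinning to the smallest library and 0.71 at a mean of at least 5 CPM. Brachyury (T), the T-box factor of the streak, stood at 158, 220 and 170 CPM in Oct4 controls and 295, 290 and 351 CPM in Oct4 induced pools, against 159 and 150 CPM in Nanog controls and 164, 148 and 129 CPM in Nanog induced pools. It rose with Oct4 (0.77 ± 0.13, adjusted p = 0.00244), its Nanog response was -0.07 ± 0.14, and the difference of 0.84 (95% interval 0.43 to 1.25) did not pass (adjusted p = 0.138). Tbx6, which directs cells to paraxial mesoderm, stood at 28.5, 25.8 and 32.0 CPM against 20.4, 20.4 and 28.6 CPM in the Oct4 line and at 27.6 and 24.7 CPM against 7.08, 9.75 and 5.60 CPM in the Nanog line. It fell with Nanog (-1.75 ± 0.21, adjusted p = 0.000364), its Oct4 response was -0.32 ± 0.17, and the difference of 1.43 (95% interval 0.84 to 2.02) had an adjusted p of 0.0719. Sp5, a Wnt target, and Dll3, a Notch ligand of the presomitic mesoderm, rose with Oct4 by 1.01 and 1.06, with Nanog responses of 0.22 and 0.34 and adjusted p of the difference 0.177 and 0.136. DESeq2 called the differences of T, Tbx6, Sp5, Dll3 and Foxc1, against 244 of the 16680 over all genes. T, Tbx6 and Sp5 belong to the streak and nascent mesoderm list, not to the paraxial list. The differences of its 22 members split into 11 below and 11 above 0, with a median of 0.05. At an unadjusted p under 0.05 (edgeR) there were 2 lower and 6 higher, against 900 and 796 over all genes.

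The remaining named genes were called for Nanog alone, and in each the difference was called together with the Nanog response. Clu, which encodes the secreted chaperone clusterin, stood at 10.1, 12.5 and 9.48 CPM against 4.91, 8.44 and 7.92 CPM in the Oct4 line and at 9.86 and 10.1 CPM against 22.1, 26.1 and 40 CPM in the Nanog line. It rose by 1.54 ± 0.29 with Nanog (adjusted p = 0.00565), and the difference was -2.15 ± 0.37 (adjusted p = 0.0404). B4galnt2, a glycosyltransferase gene, fell by 1.94 ± 0.25 with Nanog (10.7 and 10.9 CPM against 2.51, 3.01 and 2.87 CPM) and had an Oct4 response of -0.13 ± 0.19, a difference of 1.81 (adjusted p = 0.0393). Of the 11 fits that left out 1 library, 4 kept the difference for Clu (adjusted p up to 0.242) and 2 for B4galnt2 (up to 0.189); those without either Nanog control were among the losses for both. The Nanog call itself was lost for Clu without Nanog control 2 or 3 (up to 0.0671).

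For H2-T23 the controls differed too, and Rps2 shares reads with other genes. H2-T23, a class I major histocompatibility gene, stood at 9.98, 9.60 and 12.1 CPM in Oct4 controls and 5.65 and 4.57 CPM in Nanog controls, and the induced pools stood at 13.8, 15.4 and 13.8 CPM (Oct4) and 15.3, 16.4 and 17.7 CPM (Nanog). The controls did not overlap, and Nanog control minus Oct4 control was -1.05 ± 0.17 (adjusted p = 0.0152), while the induced pools differed by -0.20 ± 0.13 (adjusted p = 0.339). The difference of -1.25 (adjusted p = 0.0393) held in 2 of the 11 fits that left out 1 library (up to 0.290). Rps2, a ribosomal protein gene with many pseudogenes, stood at 714, 620 and 590 CPM against 632, 614 and 650 CPM in the Oct4 line and at 519 and 489 CPM against 850, 878 and 934 CPM in the Nanog line, a difference of -0.84 ± 0.13 (adjusted p = 0.0217) that was lost without Nanog control 2, Nanog control 3 or Oct4 induced 3 (up to 0.163).

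Many of the 34 called differences were not in ordinary protein-coding genes. Protein-coding models made up 16 of them (0.106% of 15144 tested), pseudogenes 10 (2.07% of 484), mitochondrial tRNAs 4 (30.8% of 13) and other models 4 (0.385% of 1039). In 9 of the 34 the 3 Nanog induced pools together held at most 3 counts. mt-Ts1, a mitochondrial serine tRNA, stood at 2.39, 4.41 and 4.02 CPM in Oct4 controls, 2.84, 4.87 and 5.08 CPM in Oct4 induced pools and 4.20 and 6.01 CPM in Nanog controls, and had 0 counts in the Nanog induced pools, which is at least 75.0-fold lower than in the Nanog controls against 3 counts over the group. mt-Tg, a glycine tRNA, was also at 0 there, at least 26.2-fold lower. mt-Te, a glutamate tRNA, had 1 count in the group, a ratio of 498 with a counting interval from 89.5 to 19690. These are the pools in which all models under 80 nucleotides summed to 0.575 to 1.08 CPM, and the part of that in these differences was not tested. The mt-Tg call held in 5 of the 11 fits that left out 1 library (adjusted p up to 0.189). With models under 200 nucleotides and mitochondrially encoded genes left out, which removes the tRNAs by construction, 28 of the 34 were called.

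The protein-coding mitochondrial genes differed in the opposite direction. All 13 protein-coding genes of the mitochondrial genome had a lower Oct4 than Nanog response, as had 8278 of the 16680 over all genes, with a median difference of -0.99. In the Nanog line 12 of 13 were called higher, against 4.05% of all genes (median 1.02), and the Oct4 median was 0.01. No member was called for the difference by edgeR. All 13 were lower with Oct4 at an unadjusted p under 0.05, against 900 of the 16680 over all genes. DESeq2 called 8, against 244 in either direction over all genes. mt-Co3, a subunit of cytochrome c oxidase, rose by 1.11 with Nanog, a call lost without Nanog control 2 or 3 (adjusted p up to 0.0911). Nanog control minus Oct4 control had a median of -0.52 over these genes and Oct4 induced minus Nanog induced one of -0.44. Immediate early genes, which respond to stress and handling, gave 5 of 12 called higher in the Nanog line, against 4.05% of all genes: Ier3 (1.5), Fos (1.54), Zfp36 (0.98), Btg2 (0.61) and Jund (0.58). In the Oct4 response 0 of the 12 were called, against 5.53% of all genes, and the median was 0.03. The median difference was -0.34, with 9 of 12 below 0 (8278 of the 16680 over all genes). Neither edgeR nor DESeq2 called a member for the difference. Fos stood at 1.62 to 3.82 CPM in the 6 Oct4 pools, 3.04 and 2.45 CPM in Nanog controls and 6.90, 8.52 and 8.47 CPM in Nanog induced pools. The Fos call was lost without Nanog control 2 or 3 (adjusted p up to 0.173).

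**Figure D5:**
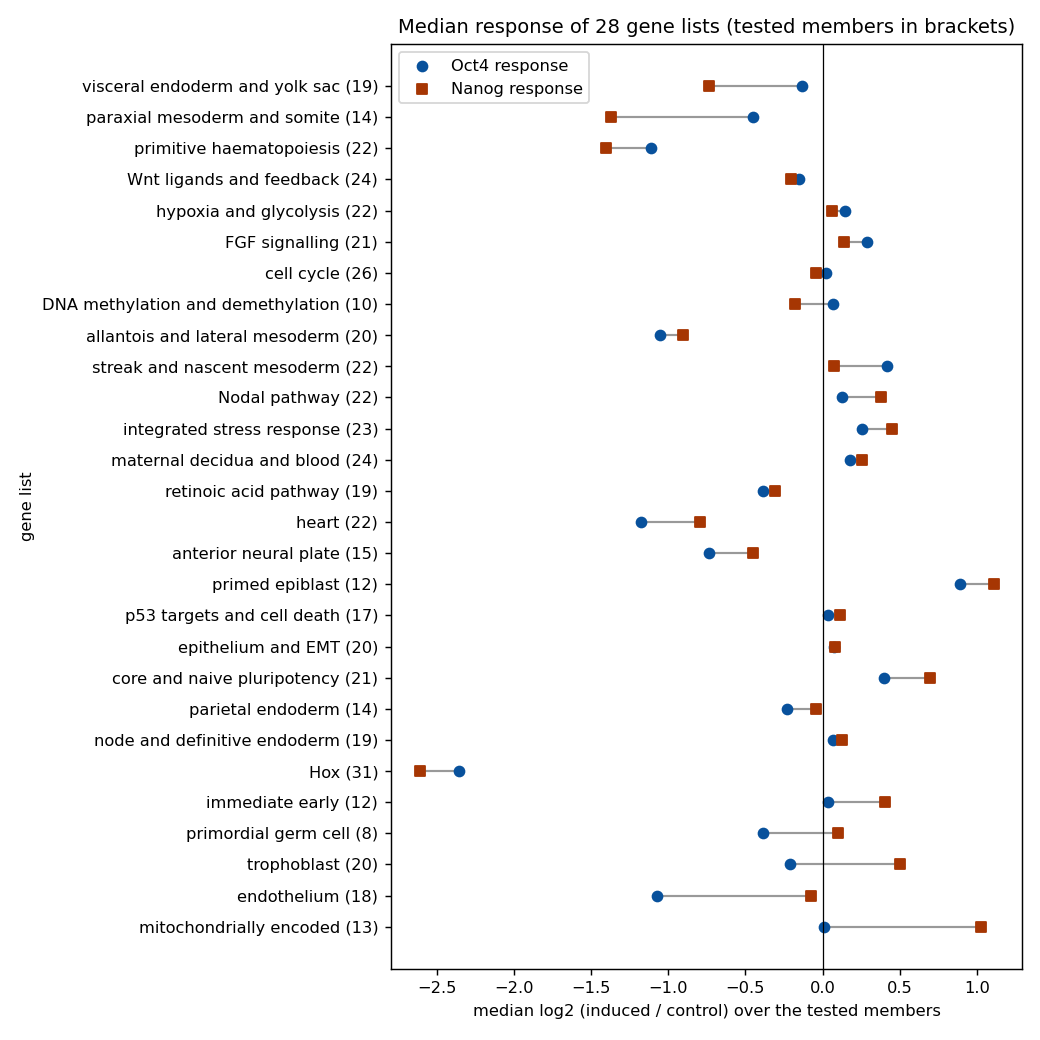
Median log2 fold change, induced over control (x axis), over the tested members of 28 gene lists (y axis, number of members in brackets) for the Oct4 response (circles) and the Nanog response (squares), ordered by the median difference. The Hox list is at -2.36 and -2.61 and the primed epiblast list at 0.89 and 1.11, and the widest gaps between circle and square are in the endothelium, trophoblast, visceral endoderm, paraxial mesoderm and mitochondrially encoded lists, of which the paraxial gap rests on 14 genes and moves with the libraries.

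The primordial germ cell list had 8 tested members, median responses of -0.39 (Oct4) and 0.10 (Nanog) and a median difference of -0.67 (-0.75 to -0.53 over the alternatives), with 7 below 0. None was called for the difference by edgeR or DESeq2. At an unadjusted p under 0.05 there were 3 lower and 1 higher, against 900 and 796 of the 16680 over all genes. Of those 16680 differences 8278 were below 0. Kit, a receptor tyrosine kinase gene of germ cells and blood, stood at 36.2, 26.9 and 31.9 CPM against 20.4, 12.8 and 14.4 CPM in the Oct4 line and at 40 and 45.7 CPM against 26.7, 28.9 and 30.3 CPM in the Nanog line. Induced pools were below controls in both lines, by -0.99 with Oct4 (adjusted p = 0.002) and -0.59 with Nanog, where it was not called (adjusted p = 0.0623). Ifitm1, an interferon-induced transmembrane gene, was the member with a difference above 0 (0.64, adjusted p = 0.258). Nanos3, the measured member that was not tested, was at most at 0.574 CPM in any pool.

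The cell cycle list had medians of 0.02 and -0.05, and Ccnd2, which encodes cyclin D2, was the 1 of 26 members called in both lines (-1.05 and -1.38), with adjusted p up to 0.135 and 0.0808 when 1 library was left out. Over all genes tested, 1.09% were called higher in both lines and 2.21% lower in both. Of 21 tested genes of FGF signalling 6 were called higher in both, among them Etv1, an ETS factor downstream of FGF, at 8.89 to 10.4 CPM over the 5 controls against 19.8 to 30.5 CPM over the 6 induced pools (1.30 and 1.49). With Nanog 7 FGF members were called higher and 3 lower (4.05% and 5.57% of all genes). In the integrated stress response list 4 of 23 were called higher in both: Slc7a3, Slc7a5 (0.37 and 0.52), Asns (0.40 and 0.55) and Mthfd2 (0.35 and 0.52). In the p53 and cell death list the 1 of 17 called higher in both was Pmaip1, which encodes the BH3 protein Noxa, at 21.1 to 26.7 CPM over the 5 controls against 76.9 to 101 CPM over the 6 induced pools (1.88 ± 0.13 and 1.95 ± 0.16). Its difference was -0.07 (95% interval -0.50 to 0.35). Across all 28 lists, Pecam1 and Dlx3 were the members that edgeR called for the difference.

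The lines were also compared without their own controls. Between the control groups 71 genes were called (0.426%), 43 (0.258%) higher in Nanog controls and 28 (0.168%) higher in Oct4 controls. Between the induced groups 2710 were called (16.2%), 1390 (8.33%) higher with Oct4 and 1320 (7.91%) higher with Nanog, and scaling by total counts alone turned this split to 1014 and 1482. Of the 34 called differences 30 were also called between the induced groups and 5 between the controls. Which sequencer read each library is not given in the sources used here. Factor and sequencing run therefore cannot be told apart in that comparison, nor can induction and run in either response or in their difference.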

How the data were processed

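RNA-seq was made from total RNA of pools of whole E7.5 embryos. The authors deposited RSEM expected counts for 22 libraries, on NCBIM37, and RSEM 1.17, cutadapt, Picard and limma are named in the submitters' processing notes. Strand, and which sequencer read each library, are not given in the sources used here. RSEM divides reads that map to several genes, and reads of a transgene and its endogenous gene are counted together. The deposited expected counts were rounded to whole numbers. edgeR 4.0.16 (R 4.3.3; TMM, default filter on low counts, robust quasi-likelihood test, Benjamini-Hochberg adjustment, called at an adjusted p under 0.05) was fitted to the 11 E7.5 libraries in 4 groups, with contrasts for each response, their difference, the controls and the induced pools. Fold changes are log2 with SE, CPM use TMM library sizes except for the sum of short models, and positions follow the annotation of that build. The test was also run on simulated counts with the same spread for every gene. That run does not show how well the calls hold in these pools.

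A floor is 3 counts, and floors and counting intervals cover counting error only. The labels put each library in its group, and nothing says more of the pools than that they are separate, so p-values measure the spread between pools. The members and the 28 gene lists were chosen with earlier results of these data known. Of 565 list memberships 554 matched 1 identifier, 7 several and 4 none, and 530 were tested. Genes named are Pou5f1 and Nanog, the called differences with the highest and lowest values, a mean of at least 5 CPM and a symbol that is no predicted model, the 12 highest and 12 lowest shared genes by the smaller change, genes called in opposite directions, and per list the members with the lowest p. Alternatives were DESeq2 1.42.0, limma-voom (limma 3.58.1) with and without sample weights, other scalings and filters, thinning to the smallest library, all 22 libraries, each response on its own groups, a replicate block, removal of short and mitochondrial models, and leaving out each library. Results for some genes are not reported here.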

Additional observations from a re-analysis of the deposited data

Results flagged for a closer look

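The Oct4 and Nanog responses of 14 named genes differed by the test of the difference itself (edgeR, adjusted p under 0.05), given here as Oct4 minus Nanog response on the log2 scale. Higher with Oct4 were Tcte2 (1.59), Cd59b (1.40), Enpp2 (1.22), B4galnt2 (1.81) and the mitochondrial tRNAs mt-Te (8.52), mt-Tg (8.00) and mt-Ts1 (10.19), which had 1, 0 and 0 counts in the Nanog induced pools. Fitted values of genes at 0 depend on the prior count. Higher with Nanog were Pcdh12 (-4.01), Clu (-2.15), Dlx3 (-2.03), Pecam1 (-1.98), H2-T23 (-1.25), Rps2 (-0.84) and Slc39a6 (-0.81). No group had 4 or more pools, so no pool was tested for standing apart from its group.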

How the results depend on the processing

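The count of called differences, 34, became 244 with DESeq2, 177 with all 22 libraries, 266 with weighted limma-voom, 19 with limma-voom, 56 without a filter and 89 with a replicate block. The Oct4 count, 922, became 1638 with all 22 libraries, 3870 with weights, 599 at a mean of at least 5 CPM and 510 after thinning. The Nanog count, 1605, became 2737 with all 22 libraries and 830 with limma-voom. Between controls, 71 became 497 (DESeq2), 987 (all 22), 3051 (weights), 147 (no filter) and 930 (block). Between induced pools, 2710 became 4246 (all 22) and 1424 (block). Shared genes, 549, became 962 (all 22), 981 (weights) and 337 (thinned). Genes in opposite directions, 3, became 13 (DESeq2), 18 (all 22), 31 (weights), 5 (limma-voom) and 10 (block). Oct4 alone, 4, became 25 (DESeq2), 15 (all 22), 56 (weights), 2 (limma-voom), 2 (at least 5 CPM), 8 (no filter), 8 (block) and 1 (thinned). Nanog alone, 26, became 185 (DESeq2), 132 (all 22), 146 (weights), 14 (limma-voom), 16 (at least 5 CPM), 43 (no filter) and 62 (block). The cause of these shifts was not tested. Leaving out 1 library gave 16 (without Nanog control 3) to 102 (without Nanog induced 1) called differences, 453 (without Oct4 control 3) to 1015 Oct4 and 531 (without Nanog control 3) to 1917 Nanog calls, 26 to 383 between controls, 1293 (without Oct4 induced 3) to 3353 between induced pools, 271 to 527 shared, 1 to 7 opposite, 0 to 5 Oct4 alone and 12 to 88 Nanog alone. Same-numbered control and induced pools of the Oct4 line deviated together with r of 0.11, 0.13 and 0.022. Differently numbered ones had lower values, with r from -0.13 to 4.2e-05. The Nanog pools numbered 3 had r of 0.015. The labels do not state that the numbers are pairs, so they were not taken as such in the main fit, and the replicate block is an alternative. Among the values of named genes 166 lost their call under an alternative and none turned its direction. Of 615 recomputed list medians of the difference, 86 moved by more than the SD of the list's mean level between pools and 47 changed sign, 24 of these among the 86; the visceral endoderm median became 0.32 with the replicate block. The Nanog controls, 2 pools of 6.59 and 8.54 M counts, limit the Nanog response and every difference that uses it.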
